A study of Mus musculus with 8 samples.

Results

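Genes of the nuclear genome that encode the subunits and assembly factors of oxidative phosphorylation were followed through the immune cells of the brain. They were taken by the start of their symbol (Nduf, Uqcr, Atp5, Sdha, Sdhb, Sdhc, Sdhd, Cox4, Cox5, Cox6, Cox7 or Cox8). Of the 32285 genes in the files, 98 matched, and the 96 with at least 50 unique molecular identifiers (UMIs) over all cells were kept. The gene just inside this limit was Ndufa4l2, with 92 UMIs, and the 2 genes outside it, Cox7b2 and Cox8c, had 0. The kept genes were 37 subunits and 8 assembly factors of complex I, 4 subunits and 4 assembly factors of complex II, 8 genes of complex III, 18 of complex IV and 17 of the ATP synthase. Of these, 95 are annotated as coding for protein in GENCODE vM21, and Ndufb1-ps is annotated as a noncoding RNA of a bidirectional promoter.

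The data were 8 libraries of CD45.2-positive cells sorted from mouse brain, made with a 5′ kit that counts a UMI at the 5′ end of a transcript whatever its length. WT mice (C57BL/6J) and APPNL-G-F mice, which carry a humanized amyloid-β sequence with disease mutations knocked into App, each gave 1 untreated control library and 1 library from each treatment. The treatments were acute colitis (2% dextran sulfate sodium in the water for a week), chronic colitis (3 cycles of 2% of the same agent, 5 days each) and food allergy to ovalbumin. The labels give an age of 16 weeks for all mice, and a fluorescent CD45 antibody had been injected into the blood of the mice before perfusion, and which cells it marked cannot be read from the counts. Cells of several animals were pooled in a library, the number of mice differed between conditions, and no condition was repeated as a library.

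The libraries held 4874 to 7199 cells and 25616824 to 54618574 UMIs, with the lowest median depth, of 2777 UMIs per cell, in WT control. They shared 34 to 72 cell barcodes in pairs, at most 1.252% of the smaller library. A cell was put in a type where it had at least 3 of 6 marker genes and at least 2 more than for any other type. This placed 24693 of the 50088 cells, and no member was a marker. Microglia, the resident macrophages of the brain, made up only 62 of the gated cells and reached 20 cells in 1 library, so they were not described further. Levels are given in CPM (counts scaled to 1e6 UMIs), summed over the cells of a type in a library, for the 23 types with at least 20 cells in at least 3 libraries.

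Oxidative phosphorylation makes most of the ATP of a resting cell in the inner membrane of the mitochondrion. Complex I and complex II pass electrons from NADH and from succinate to ubiquinone, complex III hands them to cytochrome c, and complex IV gives them to oxygen. The protons pumped on the way drive the ATP synthase, often called complex V. A few core subunits of complexes I, III, IV and V are encoded by the mitochondrial DNA, and all others, with every subunit of complex II, are made from nuclear genes and imported. Several complex IV subunits have a second gene that is used in particular tissues, such as heart and muscle.

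The summed level of the 96 genes ranged over more than 3-fold between the types, and it was highest in dividing marrow-type cells. Neutrophil precursors had a median of 34848 CPM (29186 to 37440, 7 libraries), erythroid cells 33543 CPM (29991 to 37794, 4 libraries) and developing B cells 31978 CPM (26708 to 34637, 8 libraries). These 3 types also held the most cycling cells, with 84.0%, 89.1% and 47.6% of their cells showing at least 2 of 6 cell cycle genes. Such detection depends on depth, which was highest in neutrophil precursors, at a median of 24050 UMIs per cell.

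Monocytes followed with 29464 CPM (22660 to 31103) and plasmacytoid dendritic cells (pDC), the main makers of type I interferon, with 27404 CPM (24013 to 29785). The lymphocytes lay close together, from NK cells at 24951 CPM and gamma-delta T cells at 24207 CPM to mature B cells at 21112 CPM and group 2 innate lymphoid cells (ILC2) at 20735 CPM. Macrophages had 19050 CPM (16770 to 21678) and mast cells 15608 CPM (11296 to 16842). In this order neighbouring types overlapped in range, except at migratory DC above mast cells and at immature above mature neutrophils. The order of the middle types depends on the total. Without ribosomal protein and mitochondrially encoded genes in it, the level moved beyond its spread in 21 of 23 types, CD8 T cells (34488 CPM) lay above NK cells (33662 CPM) and fibroblasts (27269 CPM, and 24212 CPM with all genes) below mature B cells (28308 CPM).

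The lowest levels were in immature neutrophils, at 14492 CPM (12413 to 15929), in mature neutrophils, at 10415 CPM (8008 to 11614), and in plasma cells, at 9816 CPM (9097 to 10245). Each of these types gives a large share of its UMIs to a few products. Immunoglobulin genes took a median of 654626 CPM in plasma cells, and S100a8 and S100a9 took 270126 CPM in immature and 239479 CPM in mature neutrophils. With immunoglobulin, S100a8, S100a9 and haemoglobin left out of the total, a setting chosen after seeing the data, the members came to 28461 CPM in plasma cells, 19896 CPM in immature neutrophils and 13506 CPM in mature neutrophils. The low level of plasma cells thus held for their share of all UMIs and not for their share of the remaining ones, whereas mature neutrophils stayed low on either scale.

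**Figure D1:**
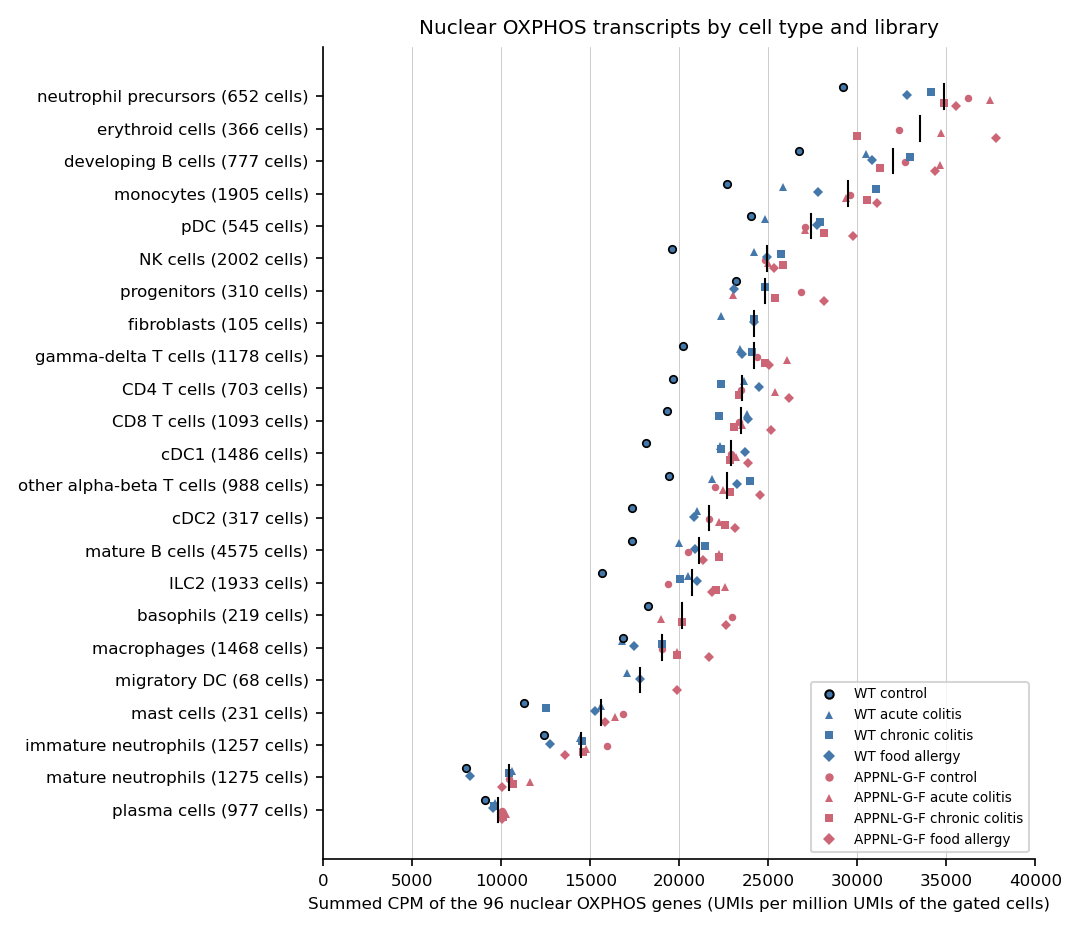
Summed level of the 96 nuclear oxidative phosphorylation genes in CPM by gated cell type, with a point for each library and a bar at the median over libraries. Neutrophil precursors are at the top with 34848 CPM, and plasma cells (9816 CPM) and mature neutrophils (10415 CPM) are at the bottom.

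The members were set beside the 13 subunits encoded by the mitochondrial DNA. The ratio of nuclear to mitochondrially encoded CPM was 4.25 in erythroid cells, 3.50 in neutrophil precursors, 3.47 in immature neutrophils and 3.40 in developing B cells (medians over libraries). It was 1.47 in mature B cells, 1.36 in mast cells and 1.32 in macrophages, which were lowest. Cells with more than 5% mitochondrial UMIs had been removed. Raising the limit to 10% moved no type's summed level by more than its spread over libraries.

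Single members mostly followed the sum. Over the 23 types, the median correlation of a member's log2(CPM + 10) with the sum was 0.862, among the 92 members with at least 20 CPM somewhere, and 60 of them were above 0.8. The types share libraries and the members enter the sum, so these correlations are a description. Neutrophil precursors were the highest type for 28 of these members, erythroid cells for 25 and developing B cells for 17. Mature neutrophils were lowest for 43 and plasma cells for 33.

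The shares that the complexes took of the sum varied between types. The ATP synthase genes made up 30.6% (fibroblasts) to 35.8% (CD8 T cells) of the members' CPM, complex I 22.5% (migratory DC) to 33.5% (plasma cells) and complex II 1.48% (immature neutrophils) to 2.51% (progenitors). Complex IV ranged from 22.6% in plasma cells to 31.2% in pDC, where Cox6a2 adds to it.

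The genes outside the list whose pattern was most like the sum were Psmb4 (r = 0.963), Tomm5 (0.959), Psmc3 (0.953), Timm13 (0.953) and Mrpl40 (0.951), over the 23 types. Psmb4 and Psmc3 encode subunits of the proteasome, Tomm5 and Timm13 belong to the import machinery of mitochondria, and Mrpl40 to the mitochondrial ribosome.

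Genes that move together can be looked at in their promoters, so 4 short motifs of factors known to bind promoters of this pathway were searched in RefSeq promoter sequences (GRCm38.p6, 250 bases before to 50 after the start, both strands). Promoters of 78 of the 96 members were in the table. The NRF1 motif, GCGCA and GCGC with 1 base of any kind between them, was in 26.9% of these members, in 10.3% of 11580 other genes with at least 50 UMIs and in 5.19% of all 27025 genes with a promoter (4.6% of promoters). The GABPA motif CCGGAAG was in 28.2% of members, 18.5% of the other expressed genes and 9.93% of all (8.86% of promoters). For the YY1 motif AAGATGGCG these shares were 10.3%, 3.11% and 1.64% (1.4% of promoters), and for the ERRα motif CAAGGTCA 5.1%, 1.34% and 1.76% (1.56% of promoters). At least 1 of the 4 motifs was in 43 of the 78 members (55.1%), against 29.5% of the other expressed genes.

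The 150 bases before the start are printed for 5 members, 4 that the results return to and Sdhd for complex II, on the gene's strand, with motif matches in capitals, in either orientation. Cox6a1 (chr5:115348959-115349108, minus strand) is the widely used partner of Cox6a2. Sdhd (chr9:50603850-50603999, minus strand) encodes a membrane anchor of complex II, and each of these promoters holds an NRF1 and a GABPA match. Atp5g3 (chr2:73911327-73911476, minus strand) encodes subunit c of the ATP synthase and holds an ERRα match. Cox6b2 (chr7:4753095-4753244, minus strand) and Cox8b (chr7:140900447-140900596, minus strand) are isoforms with a narrow pattern, and neither window holds any of the 4 motifs, which says only that these letters were not in it.
Cox6a1: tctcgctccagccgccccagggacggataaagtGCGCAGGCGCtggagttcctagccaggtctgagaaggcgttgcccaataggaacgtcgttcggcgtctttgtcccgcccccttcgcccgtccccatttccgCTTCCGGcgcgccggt
Sdhd: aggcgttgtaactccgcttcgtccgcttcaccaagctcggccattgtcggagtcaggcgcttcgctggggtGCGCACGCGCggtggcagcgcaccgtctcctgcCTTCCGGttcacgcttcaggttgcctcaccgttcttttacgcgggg
Atp5g3: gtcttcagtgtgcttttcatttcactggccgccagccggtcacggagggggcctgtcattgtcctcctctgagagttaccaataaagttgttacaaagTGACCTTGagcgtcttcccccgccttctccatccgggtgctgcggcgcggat
Cox6b2: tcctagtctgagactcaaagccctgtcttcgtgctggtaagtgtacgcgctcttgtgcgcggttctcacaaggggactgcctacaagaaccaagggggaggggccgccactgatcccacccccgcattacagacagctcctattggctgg
Cox8b: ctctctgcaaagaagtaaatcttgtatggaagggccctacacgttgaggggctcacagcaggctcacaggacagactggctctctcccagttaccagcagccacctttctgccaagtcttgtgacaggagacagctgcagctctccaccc

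The members with a narrow pattern were isoforms. Only 4 members were more than 2-fold higher in their highest type than in the next one, after 10 CPM had been added to both: Cox6a2, Cox6b2, Ndufa4l2 and Sdhaf1.

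Cox6a2 (chr7:128205435-128206387), the isoform of subunit VIa known from heart and skeletal muscle, was high in pDC. In pDC of WT mice it stood at 1910 CPM in control, 1647 CPM in acute colitis, 2446 CPM in chronic colitis and 2981 CPM in food allergy. In those of APPNL-G-F mice it was at 2580, 1964, 2535 and 2800 CPM in the same order. Its median was 2491 CPM in pDC, against 40.9 CPM in progenitors, the next type, and 21.4 CPM in NK cells. Cox6a2 made up 83.9% to 90.7% of the UMIs of Cox6a1 and Cox6a2 in pDC and a median of 13.2% in progenitors, while no other type had a median above 9.53% (plasma cells). Single libraries went higher, up to 31.3% in progenitors, 26.5% in cDC2, 21.4% in plasma cells, 18.4% in CD8 T cells and 17.35% in NK cells. The ubiquitous Cox6a1 was at 242 to 367 CPM in pDC.

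Cox6b2 (chr7:4751792-4753094), known as the testis isoform of subunit VIb, had its highest level in erythroid cells. It was at 150 CPM in APPNL-G-F control, 263 CPM in acute colitis, 242 CPM in chronic colitis and 196 CPM in food allergy, the 4 libraries with enough erythroid cells, all of APPNL-G-F mice. Progenitors followed with a median of 53.7 CPM and neutrophil precursors with 26.3 CPM. Its share of the UMIs of Cox6b1 and Cox6b2 was 19.2% to 29.9% in erythroid cells, 10.1% in progenitors and 0% (median) in NK cells, gamma-delta T cells and CD8 T cells.

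Ndufa4l2 (chr10:127514967-127517154), a relative of the complex IV subunit Ndufa4 that is induced by low oxygen in other cells, had its highest median in fibroblasts. With 92 UMIs over all cells, its levels rest on few UMIs. It stood at 10.3 to 31.1 CPM in the 3 fibroblast libraries, all from WT mice, and at a median of 1.73 CPM in the next type. Sdhaf1, an assembly factor that helps put iron-sulphur clusters into Sdhb, was at 208.5 CPM (164.5 to 283.1, 3 libraries) in migratory DC and at 78.8 CPM in ILC2, the next type. Cox4i2 and Cox7a1, the isoforms of Cox4i1 and Cox7a2 used in lung and muscle, did not exceed a median of 8.09 and 5.94 CPM in any type.

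The 3 genes Atp5g1, Atp5g2 and Atp5g3 encode the same mature subunit c, the rotor ring of the ATP synthase, behind different import signals. Atp5g2 took the largest share of their UMIs in most lymphocytes and dendritic cells, with a median of 53.2% in cDC2, 50.9% in pDC and 46.0% in mature B cells. In immature and mature neutrophils Atp5g3 led, with medians of 50.8% and 50.1%, and the share of Atp5g1 was 13.41% and 13.02%. Atp5g3 also had the largest median in neutrophil precursors (40.9%), erythroid cells (39.9%), fibroblasts (45.2%), gamma-delta T cells (39.7%) and basophils (42.6%). In neutrophil precursors Atp5g1 had 26.3%, with a range of 24.4% to 27.5% that did not overlap the 11.6% to 14.3% of immature neutrophils.

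**Figure D2:**
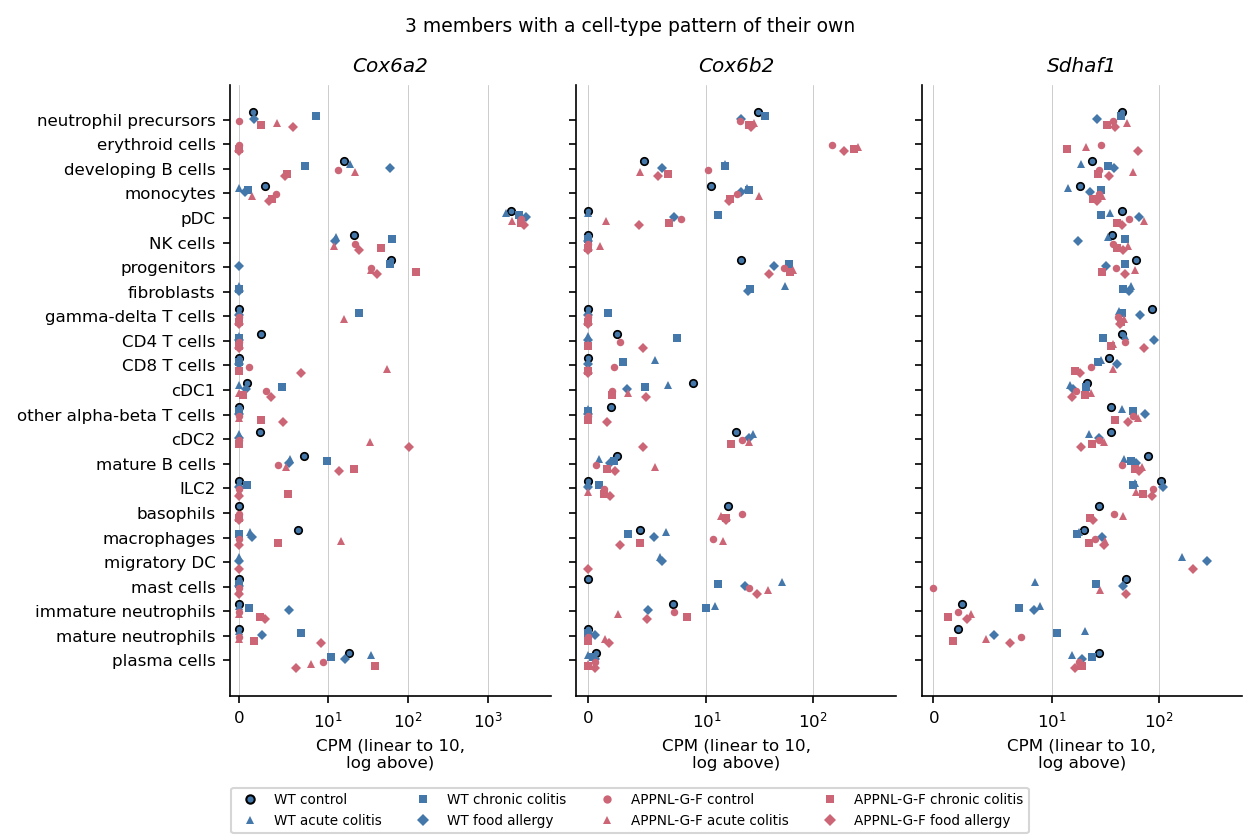
Level of Cox6a2, Cox6b2 and Sdhaf1 in CPM by gated cell type, on an axis that is linear to 10 CPM and logarithmic above, with a point for each library. Cox6a2 lies at 1647 to 2981 CPM in pDC, Cox6b2 at 150 to 263 CPM in erythroid cells and Sdhaf1 at 164.5 to 283.1 CPM in migratory DC.

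Differences between types were tested with edgeR's quasi-likelihood test on counts summed per library and type, with the library as a block and Benjamini-Hochberg adjustment over all genes, called at 0.05. The fold changes are relative to the typical gene of the comparison (TMM factors). Many genes differ between cell types, so the share of all genes called is given beside each count of members. In both B-lineage comparisons the members moved together relative to other genes.

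Developing B cells, the marrow-type stages that rearrange their immunoglobulin genes, had a higher summed level than mature B cells in 8 of 8 libraries, by 1.41-fold to 1.61-fold, and the ranges did not overlap. Of 90 members tested, 74 rose and 1 fell, against 30.9% of all genes higher and 30.3% lower. The median log2 difference was 0.57 for the members and -0.01 for all 8024 genes tested. By complex, 32 of 37 complex I subunits, 3 of 4 complex II subunits, 7 of 8 complex III genes, 12 of 12 complex IV genes and 16 of 17 ATP synthase genes rose.

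Cox5a, the subunit of complex IV that lies at the matrix side, was at 575 to 783 CPM (median 693) in developing B cells and at 303 to 376 CPM (median 344) in mature B cells, without overlap (log2 difference 0.98 ± 0.07 SE, adjusted p = 6.229e-10). Ndufs5, an accessory subunit of complex I, was at 253 to 337 CPM against 85.0 to 152.7 CPM (1.19 ± 0.08, adjusted p = 2.592e-10). Ndufc1 (1.05 ± 0.08), Ndufa12 (0.97 ± 0.10) and the complex I assembly factor Ndufaf6 (1.09 ± 0.29) completed the 5 largest rises, and of these 5 only Ndufaf6 had overlapping ranges, with a higher CPM in 7 of 8 libraries. Sdhaf1 was the member that fell, from a median of 60.9 CPM in mature B cells to 30.4 CPM (-0.99 ± 0.15). The mitochondrially encoded subunits went the other way, with 13 of 13 lower and a median of -0.68.

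Among related lists, 8 of 13 genes of the citric acid cycle rose and 0 fell, and 55 of 78 genes of the mitochondrial ribosome rose and 1 fell. Of 9 immediate-early genes tested, which stressed cells induce quickly, 8 were lower in developing B cells. The part of these genes and of cycling (47.6% of developing and 1.68% of mature B cells) in the difference was not tested across the types.

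Cycling was compared within developing B cells. The gate holds more than 1 stage, and cycling is called by detection of genes. The split may therefore also be one of stage or depth, which was not tested. In the 5 libraries with at least 20 cells of each kind, cells with at least 2 of 6 cell cycle genes had 27892 to 35664 CPM and cells with none had 22337 to 29449 CPM, and the cycling cells were higher in 5 of 5 libraries (1.21-fold to 1.41-fold). Of 84 members tested, 51 rose and 4 fell, against 24.1% of all genes higher and 21.6% lower, with a median of 0.47. With total UMIs 33 rose and 7 fell, against 19.1% and 29.6%, with a median of 0.29. Of 5 immediate-early genes tested, 4 were lower in cycling cells with TMM factors, and their part was not tested. ATP synthase genes rose in 15 of 17 cases and complex I subunits in 18 of 37. Atp5g3 was at 1155 to 1454 CPM in cycling and at 486 to 830 CPM in non-cycling cells (1.15 ± 0.11, adjusted p = 3.785e-10). Cox5a was at 667 to 870 CPM against 243 to 452 CPM (1.19 ± 0.13).

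Ndufaf7 (1.38 ± 0.41), Atp5g1 (1.28 ± 0.15) and Ndufab1, the acyl carrier protein of mitochondria (1.16 ± 0.17), were the other large rises. Cox7a2l fell from 293 to 486 CPM in non-cycling to 150 to 216 CPM in cycling cells (-1.12 ± 0.15, adjusted p = 3.076e-07). Sdhaf4 (-0.76 ± 0.30), Uqcrh (-0.63 ± 0.11) and Ndufa6 (-0.35 ± 0.12) fell as well. Without the library of APPNL-G-F control, or without that of APPNL-G-F food allergy, 2 members in place of 4 were lower.

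Plasma cells, the antibody-secreting end stage of B cells, gave a direction that depends on the scale. As a share of all UMIs the summed members were lower than in mature B cells in 8 of 8 libraries (ratio 0.449 to 0.524). Relative to the typical gene they were higher. Of 90 members tested, 76 rose and 4 fell with TMM factors, against 32.1% of all genes higher and 36.6% lower, and the median was 0.63 for the members and -0.08 for all genes. With total UMIs in place of the TMM factors, chosen after seeing the data, 2 rose and 85 fell, against 5.69% of all genes higher and 88.9% lower, with a median of -1.18 for the members and -1.89 for all genes. The change of scale moves all genes alike, so it leaves the gap between members and all genes as it was.

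Cox6a2 and Ndufa1 were the 2 members that were higher on either scale. Cox6a2 was at 6.36 to 38.7 CPM (median 13.4) in plasma cells and at 4.33 to 21.4 CPM (median 6.52) in mature B cells, higher in 7 of 8 libraries, with a log2 difference of 2.82 ± 0.29 with TMM factors and 0.97 with total UMIs. Ndufa1, an accessory subunit of complex I encoded on the X chromosome, was at 77.5 to 303 CPM (median 271) against 72.9 to 165 CPM (median 149), higher in 8 of 8 libraries (2.52 ± 0.18, adjusted p = 1.271e-07, and 0.72 with total UMIs). Both had overlapping ranges between the types. Uqcrq (1.99 ± 0.12) and Ndufv3 (1.90 ± 0.12) rose with TMM factors and had 0.18 and 0.10 with total UMIs, which did not pass the test.

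Ndufb9 had 1.58 ± 0.08 with TMM factors although its CPM was lower in plasma cells in 8 of 8 libraries. By complex, with TMM factors, 34 of 37 complex I subunits, 15 of 17 ATP synthase genes, 12 of 13 complex IV genes and 7 of 8 complex III genes rose. The members that fell with TMM factors were Sdhaf2, the factor that adds FAD to Sdha (-1.07 ± 0.13), Ndufaf7 (-0.44 ± 0.12), Cox7a2l (-0.31 ± 0.13) and Uqcr10 (-0.30 ± 0.06). Sdhaf2 was at 5.61 to 14.5 CPM in plasma cells and 67.0 to 90.9 CPM in mature B cells, lower on either scale. With TMM factors, 41 of 78 mitochondrial ribosome genes rose and 6 fell, and 3 of 13 citric acid cycle genes rose and 3 fell. With total UMIs, 76 of the first and 13 of the second fell.

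Of the immediate-early genes, 9 of 10 were higher in plasma cells with TMM factors and 3 with total UMIs, where 6 were lower. Of plasma cells 14.1% carried several hashtags, against 5.38% of mature B cells, and in cells with 1 hashtag 76 members rose and 3 fell with TMM factors. The part of the immediate-early genes was not tested.

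**Figure D3:**
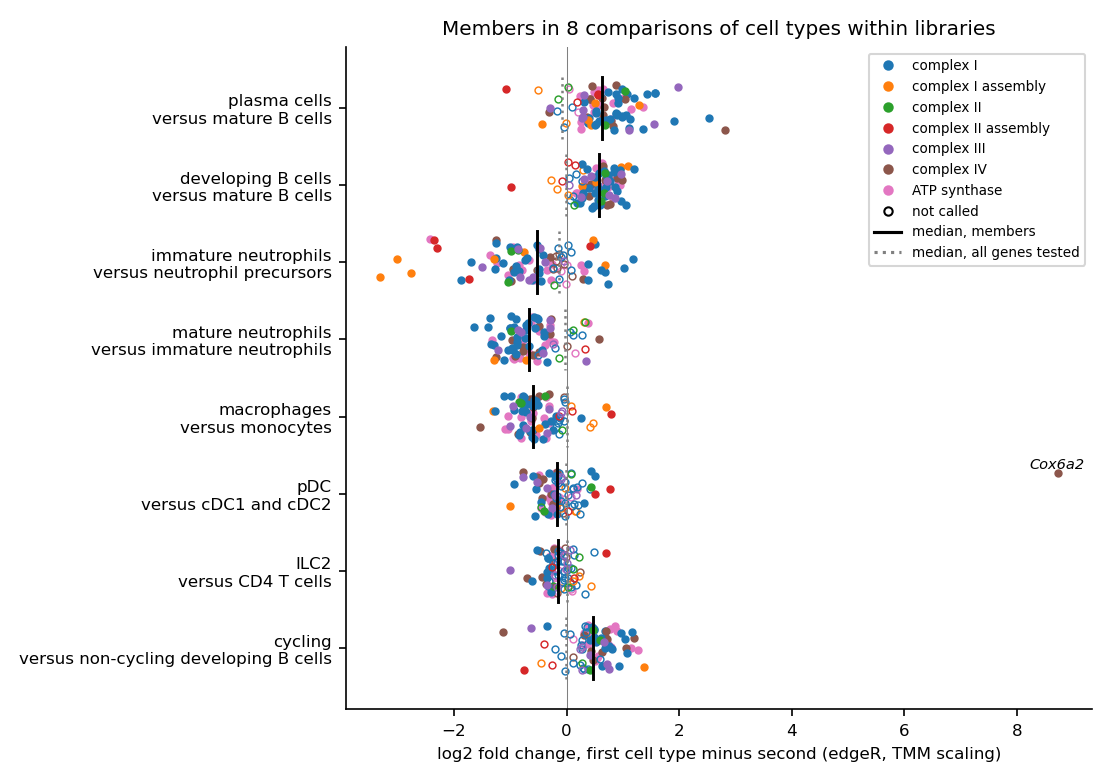
Log2 difference of the members between cell types in 8 comparisons, on the scale of edgeR with TMM factors, with a point for each member tested. The medians run from -0.67 (mature versus immature neutrophils) to 0.63 (plasma cells versus mature B cells, where the members are lower as a share of all UMIs).

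The members were lower at each step of neutrophil maturation. From precursors, which make the primary granules, to immature neutrophils, which make the secondary ones, the summed level was lower in 7 of 7 libraries (ratio 0.381 to 0.440), without overlap. Of 91 members tested, 14 rose and 57 fell with TMM factors, against 34.9% of all genes higher and 41.1% lower, and the medians were -0.52 for the members and -0.14 for all genes. With total UMIs, 1 rose and 87 fell, against 15.8% of all genes higher and 67.1% lower, with medians of -1.45 and -1.07. Precursors had 84.0% and immature neutrophils 27.0% of cells with at least 2 cell cycle genes. This share counts detection, which depends on depth, and the median depths were 24050 and 8022 UMIs per cell. Of the 6 cell cycle genes, 4 were higher and 0 lower in immature neutrophils with TMM factors (median 0.78). With total UMIs 2 were higher and 0 lower (median -0.15).

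The largest falls were in assembly factors and in a subunit of the rotor. Ndufaf4 was at 1.15 to 8.33 CPM in immature neutrophils and 49.1 to 79.8 CPM in precursors (-3.31 ± 0.30, adjusted p = 1.618e-07). Ndufaf6 (-3.00 ± 0.28), Ndufaf2 (-2.76 ± 0.39) and Sdhaf3 (-2.35 ± 0.40) fell in the same range, and 6 of 8 complex I assembly factors and 3 of 4 for complex II fell in all. Atp5g1 was at 74.2 to 101.1 CPM against 805 to 1027 CPM (-2.42 ± 0.11, adjusted p = 1.192e-10), and Atp5g2 (-1.36 ± 0.11) and Atp5g3 (-1.05 ± 0.10) fell less.

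Of the 14 members that rose, 8 were among the 37 complex I subunits tested, of which 21 fell, while 34.9% of all genes rose. These calls depend on the scale. Ndufb7 was at 290 to 417 CPM in immature neutrophils and 285 to 351 CPM in precursors, with 1.03 ± 0.11 by TMM factors and 0.09 by total UMIs. Ndufv3 had 1.19 ± 0.11, Ndufaf7 0.69 ± 0.15 and Ndufa1 0.69 ± 0.12, and Ndufa13, with 0.74 ± 0.10, had -0.20 with total UMIs. Of other lists, 70 of 78 genes of the mitochondrial ribosome, 11 of 13 of the citric acid cycle and 79 of 80 cytosolic ribosomal protein genes fell with TMM factors, while 12 of 16 glycolysis genes rose. With total UMIs 2 glycolysis genes rose and 6 fell. Of the immediate-early genes 9 of 10 rose with a median of 1.91, and their part in the result was not tested.

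Mature neutrophils had a lower summed level than immature ones in 8 of 8 libraries (ratio 0.645 to 0.787), without overlap. Of 82 members tested, 3 rose and 66 fell, against 31.1% of all genes higher and 30.8% lower, and the median was -0.67, with -0.02 for all genes. With total UMIs the counts were 3 and 67. Complex I held 32 of the 66, out of 37 tested, and the ATP synthase 15 of 17. Ndufa5 was at 2.05 to 24.3 CPM in mature and 14.3 to 66.7 CPM in immature neutrophils (-1.65 ± 0.19), and Atp5o, a subunit of the stalk, at 43.7 to 90.4 CPM against 146 to 189 CPM (-1.31 ± 0.13, adjusted p = 3.99e-07). Ndufa11 (-1.39 ± 0.17), Ndufc2 (-1.36 ± 0.15) and Ndufv3 (-1.34 ± 0.17) also fell.

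The 3 members that rose in mature neutrophils were Cox7a2l (0.58 ± 0.12), Atp5l (0.38 ± 0.09) and Uqcrh (0.35 ± 0.10), each higher in 8 of 8 libraries with overlapping ranges. Of the glycolysis genes 4 of 16 rose and 2 fell, and of the immediate-early genes 8 of 10 rose. In the hashtag groups with low immediate-early genes, with 66 members tested in 4 libraries, 0 rose and 34 fell, against 16.0% of all genes higher and 14.4% lower.

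Macrophages and monocytes differed in opposite ways in the nuclear and the mitochondrial genes. The summed members were lower in macrophages in 8 of 8 libraries (ratio 0.614 to 0.743), without overlap. Of 88 members tested, 3 rose and 68 fell, against 29.8% of all genes higher and 29.2% lower, with a median of -0.60 against 0.01 for all genes. All 17 ATP synthase genes fell, as did 28 of 37 complex I subunits, 6 of 8 complex III genes and 12 of 13 complex IV genes. All 13 mitochondrially encoded subunits rose, with a median of 0.79.

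Atp5f1, a subunit of the peripheral stalk, was at 188 to 284 CPM in macrophages and 434 to 573 CPM in monocytes (-1.09 ± 0.08, adjusted p = 1.86e-08). Ndufv1, the subunit that binds NADH, was at 32.9 to 75.3 CPM against 76.8 to 130.8 CPM (-1.11 ± 0.12). Cox6b2 (-1.53 ± 0.22), Ndufaf7 (-1.30 ± 0.15) and Ndufb1-ps (-1.27 ± 0.09) fell more, and the rises were Sdhaf4 (0.79 ± 0.14), Ndufaf4 (0.70 ± 0.20) and Ndufa5 (0.26 ± 0.08).

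Of the citric acid cycle genes 10 of 13 fell and 1 rose, and of the glycolysis genes 11 of 15 fell and 1 rose. Monocytes had 39.1% and macrophages 2.59% of cells with at least 2 cell cycle genes, and 9 of 10 immediate-early genes were higher in macrophages (median 1.23). Of macrophages 23.6% carried several hashtags, against 9.03% of monocytes, and in cells with 1 hashtag the counts of members higher and lower stayed within 1.5 times. The part of these differences in the result was not tested.

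In pDC, Cox6a2 was the largest difference of any member in any comparison. Against the mean of cDC1 and cDC2, the conventional dendritic cells that present antigen, it was at 1647 to 2981 CPM against 0 to 53.0 CPM, higher in 7 of 7 libraries (8.73 ± 0.30, adjusted p = 2.507e-17), and it stayed between 7.19 and 10.14 under the alternative settings, with the lowest under a looser gate. The other members moved little and with a direction that depends on the scale. The summed level was higher in pDC in 7 of 7 libraries (1.15-fold to 1.35-fold), with Cox6a2 included.

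Of 87 members tested, 8 rose and 36 fell with TMM factors, against 25.5% of all genes higher and 28.6% lower, with a median of -0.17. With total UMIs, which move all genes alike, 59 rose and 3 fell, against 55.4% of all genes higher and 15.8% lower, with a median of 0.27 for the members and 0.43 for all genes. Ndufa6 fell on either scale (-0.94 ± 0.08 and -0.51), from 577 to 769 CPM in the conventional cells to 334 to 539 CPM in pDC, without overlap. Sdhb, the iron-sulphur subunit of complex II, rose on either scale (0.44 ± 0.08 and 0.88), with 211 to 304 CPM in pDC against 127 to 160 CPM.

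Sdhaf1 (0.77 ± 0.15), Ndufs5 (0.51 ± 0.10) and Sdhaf4 (0.50 ± 0.20) were the other leading rises in pDC, and Ndufaf6 (-0.997 ± 0.286), Uqcrb (-0.78 ± 0.08), Cox7b (-0.77 ± 0.08) and Ndufa8 (-0.59 ± 0.10) the other leading falls. All 10 immediate-early genes were lower in pDC, with a median of -3.19, and 77 of 80 cytosolic ribosomal protein genes fell with TMM factors. Their part was not tested.

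ILC2, tissue lymphocytes that make type 2 cytokines, had a lower summed level than CD4 T cells in 8 of 8 libraries (ratio 0.795 to 0.946), with overlapping ranges. Of 85 members tested, 1 rose and 21 fell, against 17.2% of all genes higher and 19.3% lower, with a median of -0.15. The count that fell depends on the setting, with 36 by total UMIs, against 22.4% of all genes, 13 of 81 under a stricter gate, against 15.6%, and 11 of 93 without the filter on low counts, against 10.7%. Uqcrq, a small subunit of complex III, was at 58.6 to 156 CPM in ILC2 and 155 to 301 CPM in CD4 T cells (-1.01 ± 0.10, adjusted p = 5.096e-08). Cox5a was at 207 to 335 CPM against 353 to 521 CPM (-0.69 ± 0.10).

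Ndufb7 (-0.60 ± 0.11), Ndufb1-ps (-0.52 ± 0.12) and Cox5b (-0.48 ± 0.09) fell as well, and Sdhaf1 was the member that rose (0.70 ± 0.15). All 10 immediate-early genes were higher in ILC2, with a median of 2.81, and their part was not tested. In the hashtag groups with low immediate-early genes, with 74 members tested in 3 libraries, 0 members were called. Leaving out WT control, APPNL-G-F control or APPNL-G-F food allergy gave 2 or 3 members that rose in place of 1.

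Cox8b, an isoform of complex IV subunit VIII known from heart, muscle and brown fat, was at 0 CPM (median) in every gated type. It had 344 UMIs over all cells, and 342 of them lay in 60 cells that no gate held and that gave at least 5% of their UMIs to Ttr, which encodes the thyroid hormone carrier transthyretin. These Ttr-rich cells were chosen after their values had been seen, so what follows is a description with no test. They were in the 4 APPNL-G-F libraries, with 10 cells in control, 17 and 25 with acute and chronic colitis, and 8 with food allergy. The 22947 cells of the 4 WT libraries held 0 of them, and 2 Cox8b UMIs, in WT chronic colitis, lay in other cells. Whether this goes with the genotype or with the preparation of the libraries was not tested.

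The Ttr-rich cells held Cox8b in 43 of 60 cases. It stood at 246 CPM in control, 497 CPM in acute colitis, 665 CPM in chronic colitis and 279 CPM in food allergy, with 24, 91, 210 and 17 UMIs. It made up 5.66%, 13.9%, 14.2% and 7.73% of the UMIs of Cox8a and Cox8b in the same order. Cox8a, the widely used isoform, was itself at 3069 to 4093 CPM in these cells, against 1521 CPM in developing B cells, the highest gated type.

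The summed members in Ttr-rich cells were at 66567 CPM in control, 46754 CPM in acute and 66664 CPM in chronic colitis, and 50460 CPM in food allergy. Each value was above the highest library of any gated type (37794 CPM, erythroid cells), although Ttr took 27.5% to 39.0% of the UMIs. Without Ttr in the total the median was 87304 CPM. Of the 96 members, 66 had a median above that of every gated type. The share of all genes above every gated type was not computed, so this count is not read as particular to the members. Ndufa1 was at 985 CPM against at most 271 CPM (plasma cells), Cox6c at 2041 CPM against 765 CPM and Cox7a1 at 80.5 CPM against 5.94 CPM.

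Not every isoform was high in the Ttr-rich cells. Cox6a2 was at 0 CPM, and Atp5g2 was at 560 CPM, against 1274 CPM in developing B cells, while Atp5g1 was at 2025 CPM, against 855 CPM in neutrophil precursors. The ratio of nuclear to mitochondrially encoded CPM was 1.54 to 3.49. These cells held 6 UMIs of Ptprc, which encodes the CD45 that the sort was set on, in all, and they held Enpp2, Kl, Folr1 and Kcnj13 in each of the 4 libraries.

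**Figure D4:**
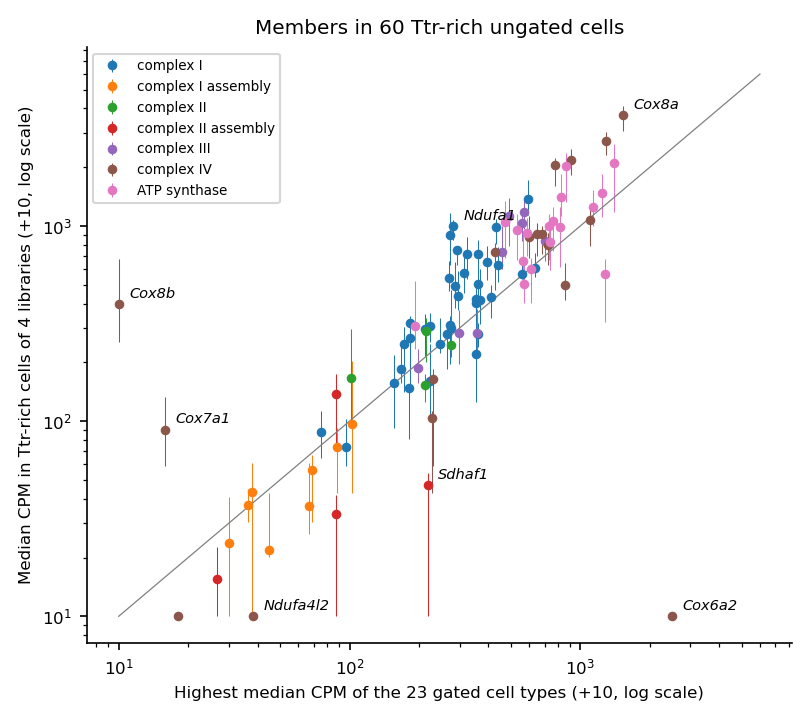
CPM of single members in the 60 Ttr-rich cells of the 4 APPNL-G-F libraries (points are medians over libraries, lines run from the lowest to the highest library) against the highest median CPM of the gated types, both with 10 added and on log axes, with a grey line where the values are equal. Cox8b lies above the line at 246 to 665 CPM where every gated type has a median of 0, and Cox6a2 lies below it at 0 CPM.

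The conditions were compared within each of 11 types present in all or nearly all libraries. The WT control library stood apart in the members. Among the 15 types found in all 8 libraries, its summed level was the lowest in 14, at 0.834 (median) of the 8-library median, with a range of 0.754 to 0.927. The other libraries had medians between 0.969 and 1.05. In NK cells, for example, WT control had 19574 CPM and the others 24178 to 25802 CPM, and in mature B cells 17365 CPM against 19958 to 22208 CPM.

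By complex, WT control was lowest in 15 of 15 types for complex I, complex III and complex IV, with median ratios of 0.813, 0.809 and 0.787, and in 12 of 15 for the ATP synthase (0.867). In the same library the cytosolic ribosomal protein genes had a median ratio of 0.877, the mitochondrially encoded subunits 1.01, the mitochondrial ribosome 0.982, the citric acid cycle 1.11 and glycolysis 1.23. Each condition is 1 library, so the state of the WT control mice and the preparation of that library cannot be told apart.

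**Figure D5:**
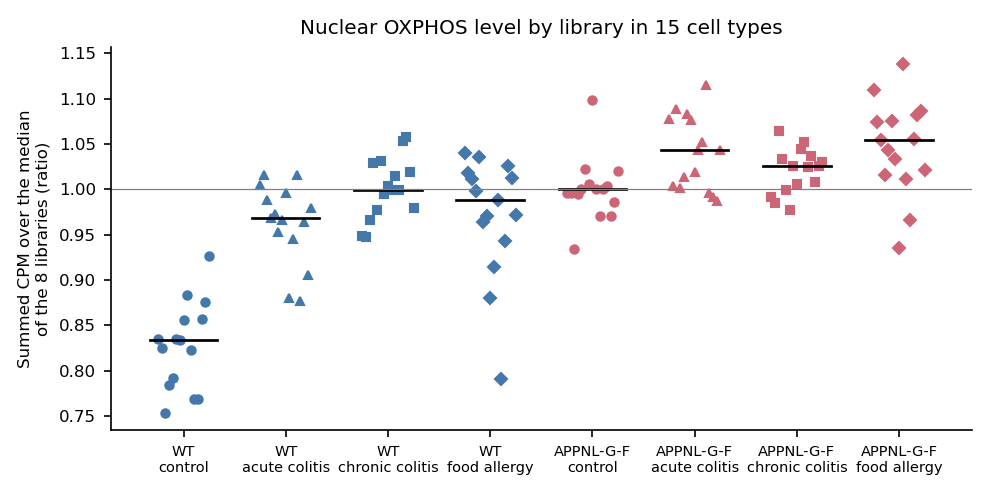
Summed level of the members in each library divided by the median of the 8 libraries, for the 15 cell types found in all of them, with a point for each type. WT control lies at 0.754 to 0.927, and the medians of the other libraries lie between 0.969 and 1.05.

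The ratio of APPNL-G-F to WT libraries followed this. It was 1.21 (median of 15 types, 1.10 to 1.31) in control and 1.09 with acute colitis, 1.02 with chronic colitis and 1.06 with food allergy. In a fit of genotype and treatment over the 8 libraries of each type, 0 of 953 tests of members were called for genotype by edgeR and 0 by DESeq2, against 0.151% of 77527 tests of all genes. At an unadjusted p under 0.05 there were 83 of the 953 member tests, which count a gene once per type, against 6.11% of all tests. Without the filter on low counts 27 of 1031 member tests were called, all higher in APPNL-G-F, against 0.831% of all tests, and in the hashtag groups with low immediate-early genes 6 of 256, against 0.519%. The median log2 difference of the members was positive in 11 of 11 types, from 0.12 to 0.28, and ran from 0.03 to 0.27 without WT control. Without WT chronic colitis 2 of 960 member tests were called, against 0.634% of all tests. Without APPNL-G-F chronic colitis 2 of 958 were called, against 0.636%.

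The treatments were higher than control in WT mice, where the control is the library that stood apart, with a median ratio of 1.16 under acute colitis, 1.23 under chronic colitis and 1.197 under food allergy. In APPNL-G-F mice these ratios were 1.02, 1.02 and 1.05. Outside ILC2, 0 of 864 member tests were called for any treatment. Of all tests, 0.0668% were called for acute colitis, 0.138% for chronic colitis and 0.00284% for food allergy. At an unadjusted p under 0.05 there were 60, 74 and 55 of the 864 member tests, against 5.86%, 6.59% and 4.13% of all tests.

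In ILC2 a few members were called higher with treatment in the fit over both genotypes, and within a genotype there is 1 library a condition and no test. The summed level was at 15631 CPM in WT control and 19376 CPM in APPNL-G-F control, and at 20027 to 22577 CPM in the 6 libraries of treated mice, all above both controls. Of 89 members tested, 3 rose with acute colitis, against 0.771% of all genes higher, 5 with chronic colitis, against 0.813%, and 3 with food allergy, against 0.995%, and 0 fell. At an unadjusted p under 0.05 the counts were 43, 40 and 39 members, against 13.7%, 15.0% and 16.0% of all genes, and with DESeq2 0 members were called.

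Cox6c, a small subunit of complex IV, was at 226 CPM in WT control and 419 CPM in APPNL-G-F control, and at 483 to 547 CPM in the 6 treated libraries. Its log2 difference was 0.84 ± 0.20 with acute (adjusted p = 0.04416) and 0.85 ± 0.20 with chronic colitis (adjusted p = 0.03913). Atp5e, the epsilon subunit of the ATP synthase, was at 422 and 789 CPM in the controls and 883 to 1066 CPM in treated mice, with 0.82 ± 0.20 in chronic colitis and 0.83 ± 0.20 in food allergy. Ndufa5 was at 54.2 and 123 CPM in the controls and 116 to 185 CPM in treated mice, so its groups overlapped (0.98 ± 0.23 in chronic colitis and 0.97 ± 0.24 in food allergy).

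The remaining calls in ILC2 were Ndufa4 (0.69 ± 0.15) and Atp5g1 (0.76 ± 0.15) with acute colitis, Uqcrq (0.98 ± 0.22) and Ndufb4 (0.72 ± 0.18) with chronic colitis and Cox7b (0.89 ± 0.19) with food allergy. In each of these genes WT control was the lowest library, and the treatments share their 2 control libraries.

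Leaving out libraries cannot show whether these calls rest on a particular one. Over all types and treatments 11 tests of members were called, some of them for the same gene. Fewer were called when any 1 library other than APPNL-G-F control was left out. More were called without APPNL-G-F control, when WT control is the only control library. Each such fit leaves 1 library in a treatment or in control and has fewer residual degrees of freedom, so its count is not interpreted. Without WT control the medians over members in ILC2 were 0.27, 0.22 and 0.28 for acute colitis, chronic colitis and food allergy. With all 8 libraries they were 0.37, 0.36 and 0.38. The immediate-early genes in ILC2 were at 20397 CPM in WT control and 11435 to 16556 CPM in the other libraries, and their part in the result was not tested.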

How the data were processed

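Single-cell RNA sequencing (10x Genomics 5′) of CD45.2-positive brain cells was analysed in 8 libraries, 1 per genotype and treatment. The authors made the deposited files with Cell Ranger 6.1.2 on mm10. The deposited values are UMI counts for each gene in each barcode, without normalization. File headers name version 4. Reads that match a near-identical copy of a gene elsewhere as well are not counted, so members with such copies may be low. All barcodes are listed, so cells were called anew: an order-of-magnitude cutoff (3000 expected cells), then a comparison of other barcodes (500 UMIs or more) with ambient RNA (ranks 45000 to 90000, 1000 simulations, false discovery rate 0.01). Cells needed 200 genes and at most 5% mitochondrial UMIs.

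No doublet caller was run. The gate leaves out cells with markers of several types, and cells with 1 hashtag were an alternative. UMIs were summed per library and gated type (at least 20 cells) and tested with edgeR 4.0.16 in R 4.3.3 (TMM, filterByExpr), with DESeq2 1.42.0 as alternative. The script was tested on simulated data. Between types the design held library and type, and between conditions genotype and treatment, with 3 residual degrees of freedom. Between types, P-values measure spread between libraries, each a pool of mice. Between conditions no library repeats a condition, so the residual spread is that of treatment differences between the genotypes. The low level of WT control enters this spread in the tests of genotype and treatment. Python 3.11.15, numpy 2.4.6, pandas 2.3.3, scipy 1.17.1 and matplotlib 3.10.9 were used.

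Members, lists and comparisons were chosen with earlier results of these data known. Named were the 5 called members with the largest rise and fall per comparison, isoform pairs, complex II, core subunits, and the 5 genes most like the sum. Atp5if1 was not analysed here, since that symbol was not matched. Hashtag groups were split into 13 with low and 17 with high immediate-early genes. Alternatives added after seeing the data were total UMIs in place of TMM factors and totals without immunoglobulin, S100a8, S100a9 and haemoglobin. V(D)J sequences were not used here.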

Additional observations from a re-analysis of the deposited data

Results flagged for a closer look

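The summed level of the members was tested for an outlying library in 21 cell types with 4 to 8 libraries, where chance flags about 1 in 20. It was flagged in 6, each time for a low value in WT control. The types come from the same 8 libraries, so these flags are not independent and cannot be weighed against that rate. In ILC2 that library was at 15631 CPM, where the nearest other had 19376 CPM and the highest 22577 CPM. In NK cells it was at 19574 CPM (nearest 24178 CPM), in cDC1 at 18125 CPM (nearest 22258 CPM) and in cDC2 at 17358 CPM (nearest 20817 CPM). In gamma-delta T cells it was at 20178 CPM (nearest 23385 CPM) and in mature B cells at 17365 CPM (nearest 19958 CPM).

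The 342 UMIs of Cox8b in Ttr-rich cells were flagged because they lie in cells that no gate holds and that no comparison used. The 4 WT libraries had 2 UMIs of Cox8b in all cells.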

How the results depend on the processing

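With total UMIs in place of TMM factors, chosen after seeing the data, members higher and lower were 2 and 85 in plasma cells, 1 and 87 in immature neutrophils, 59 and 3 in pDC, 33 and 7 in cycling developing B cells, and 36 were lower in ILC2. DESeq2 gave 2 lower in plasma cells, 2 lower in cycling cells and 0 for treatments. Without a filter on low counts, 7 were higher in immature neutrophils, 5 higher in pDC, and 2 higher and 11 lower in ILC2. With this setting 27 of 1031 member tests were called for genotype, against 0.831% of all tests. For treatments 91 of 3093 were called, against 0.811%. Under the stricter gate, 2 were lower in developing B cells, 13 lower in ILC2 and 0 called for treatments, and under the looser gate 5 were higher in mature neutrophils. In the low immediate-early set, 6 were higher in immature neutrophils, 0 higher and 34 lower in mature neutrophils, 0 higher and 0 lower in ILC2, 6 called for genotype and 0 for treatments. In the high set, 17 were lower in pDC and 2 higher in ILC2. There, 29 of 2190 member tests were called for treatments, against 2.11% of all tests. The cause of these shifts was not tested, although the sets hold fewer cells and the filter changes the genes tested. Leaving out single libraries gave 1 to 3 higher in ILC2, 2 to 5 lower in cycling cells, 0 to 2 for genotype and 1 to 286 for treatments. Each of these fits for treatments leaves 1 library in a treatment or in control, so its count is not interpreted. The largest count came without APPNL-G-F control, when WT control is the only control library. Without ribosomal protein and mitochondrially encoded genes in the total, the summed CPM moved beyond its spread in 21 of 23 types and was 46724 in neutrophil precursors. That of plasma cells was 10681 on that scale, 10443 under the looser gate, 9352 in the high set and 28461 without immunoglobulin, S100a8, S100a9 and haemoglobin, and that of mature neutrophils was then 13506. Between types the library was a block throughout. By replicate number, no paired analysis was possible because each condition is 1 library, and the fit of conditions set the genotypes side by side within treatments. Types with few cells per library, such as fibroblasts and migratory DC, give imprecise levels, and counts near 0 bound no level.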
